A study of Mus musculus with 9 samples.

Results

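The genes described here serve the entry of secretory proteins into the endoplasmic reticulum (ER), their folding there and their transport in coated vesicles between the ER and the Golgi. They were taken by symbol: the Sec61, Sec62 and Sec63 translocon, the Sec11 signal peptidase subunits, the Pdia isomerases, the Sec13, Sec16, Sec23, Sec24 and Sec31 families of the COPII coat, the Sec22 family and the COPI subunits, together with Hspa5, Hsp90b1, Calr, Canx, Dnajb9, Dnajb11, Dnajc3, Hyou1, Sdf2l1, Xbp1 and Mlec. The choice gave 47 genes of the 20467 listed with a symbol. RNA had been sequenced from RAW264.7 cells, a single mouse macrophage line, and every library came from cells given lipopolysaccharide (LPS) at 100 ng/ml for 2 h. There were 3 libraries of RNA recovered with rabbit polyclonal antibodies to Roquin bound to protein A/G beads (Roquin IP), 3 of RNA held by beads without antibody (control IP) and 3 of lysate RNA isolated before immunoprecipitation (input). The replicates are described by the submitters as biological. The design holds no cells without LPS and no cells lacking Roquin, so neither induction of these genes nor decay of their mRNAs was measured. Since the control IP held no antibody, RNA brought down by Roquin and RNA brought down by anything else the antibodies bind cannot be told apart.

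Proteins bound for secretion or for membranes are threaded through the Sec61 channel, have their signal peptide removed, and fold with the help of chaperones, lectins that read the attached sugars, and enzymes that form disulfide bonds. Correctly folded cargo leaves in vesicles coated with COPII, and COPI vesicles bring escaped ER proteins and membrane back. Macrophages given LPS make and secrete large amounts of cytokines through this route. Roquin is an RNA-binding protein that recognises short stem-loops, among them the constitutive decay element (CDE), in the 3' untranslated region (3' UTR) of mRNAs such as Tnf, and recruits enzymes that remove the poly(A) tail.

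The libraries held 1799390 to 12975767 reads assigned to genes, and the 47 genes together took 0.580% ± 0.174 of the reads in Roquin IP, against 0.386% ± 0.104 of those in control IP and 0.495% ± 0.0305 of those in the input (mean ± SD of 3 libraries). Tnf alone took 17.64 to 27.25% of the Roquin IP reads, against 0.143 to 0.262% of the control IP reads and 0.201 to 0.516% of the input reads, and Lars2 took 15.02 to 23.95% of Roquin IP reads, against 28.55 to 41.49% of control IP reads and 32.48 to 41.02% of input reads. Levels are therefore given as counts per 1e+06 reads (CPM) after scaling by the trimmed mean of M values (TMM). Summed marker levels alone are in CPM of the library total, without TMM scaling. Of 10 macrophage markers, 8 were in the table and each had at least 10 counts, with a summed level of 835 to 2150 CPM. The 4 T cell markers had no count in any library, and the summed B cell, fibroblast, epithelial and endothelial markers stayed at or below 0.471, 0.945, 0.282 and 1.46 CPM. Libraries with the same replicate number deviated together from their group means, so fits with that number as a block are given where they change a call. The main fit has a term for group alone and leaves this pairing out.

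Roquin IP held far more RNA of a few of these genes than control IP did. Mlec, which encodes an ER lectin that binds newly attached N-glycans, and Sec24c, which encodes a cargo-selecting subunit of the COPII coat, stood out at about the same size, with 16.6 and 15.6 times the level in control IP. Sec22c, which encodes a relative of the ER-Golgi SNARE Sec22b, and Sec16a, which encodes the scaffold of ER exit sites, were higher by 7.47 and 3.68 times. These 4 genes were the only ones of the 44 tested that passed at an adjusted p under 0.05 in edgeR's quasi-likelihood test, which is 9.09% of them, beside 360 of 9567 genes tested (3.76%) over the whole table. The genes were chosen with earlier results of these data known, so these shares are no test of the group. No gene of the group and none of the 9567 was lower by the same rule. At an unadjusted p under 0.05, 5 of the group were higher and 3 lower, beside 7.93% and 2.13% of all genes, and DESeq2 called 4 higher and 0 lower, beside 4.96% and 0.0627%. Scaling by library size alone left 3 higher and made 15 lower, beside 2.69% and 38.6% of all genes, with a median over all genes of -0.96. The median log2 fold change of the 44 was 0.07, beside -0.12 over all genes tested. With the replicate block, Calr joined the higher genes, which made 5 of 44 higher and 0 lower, beside 5.52% and 0.115% of all genes. Calr was not higher over the input with the block (-0.03, edgeR adjusted p = 0.95).

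**Figure D1:**
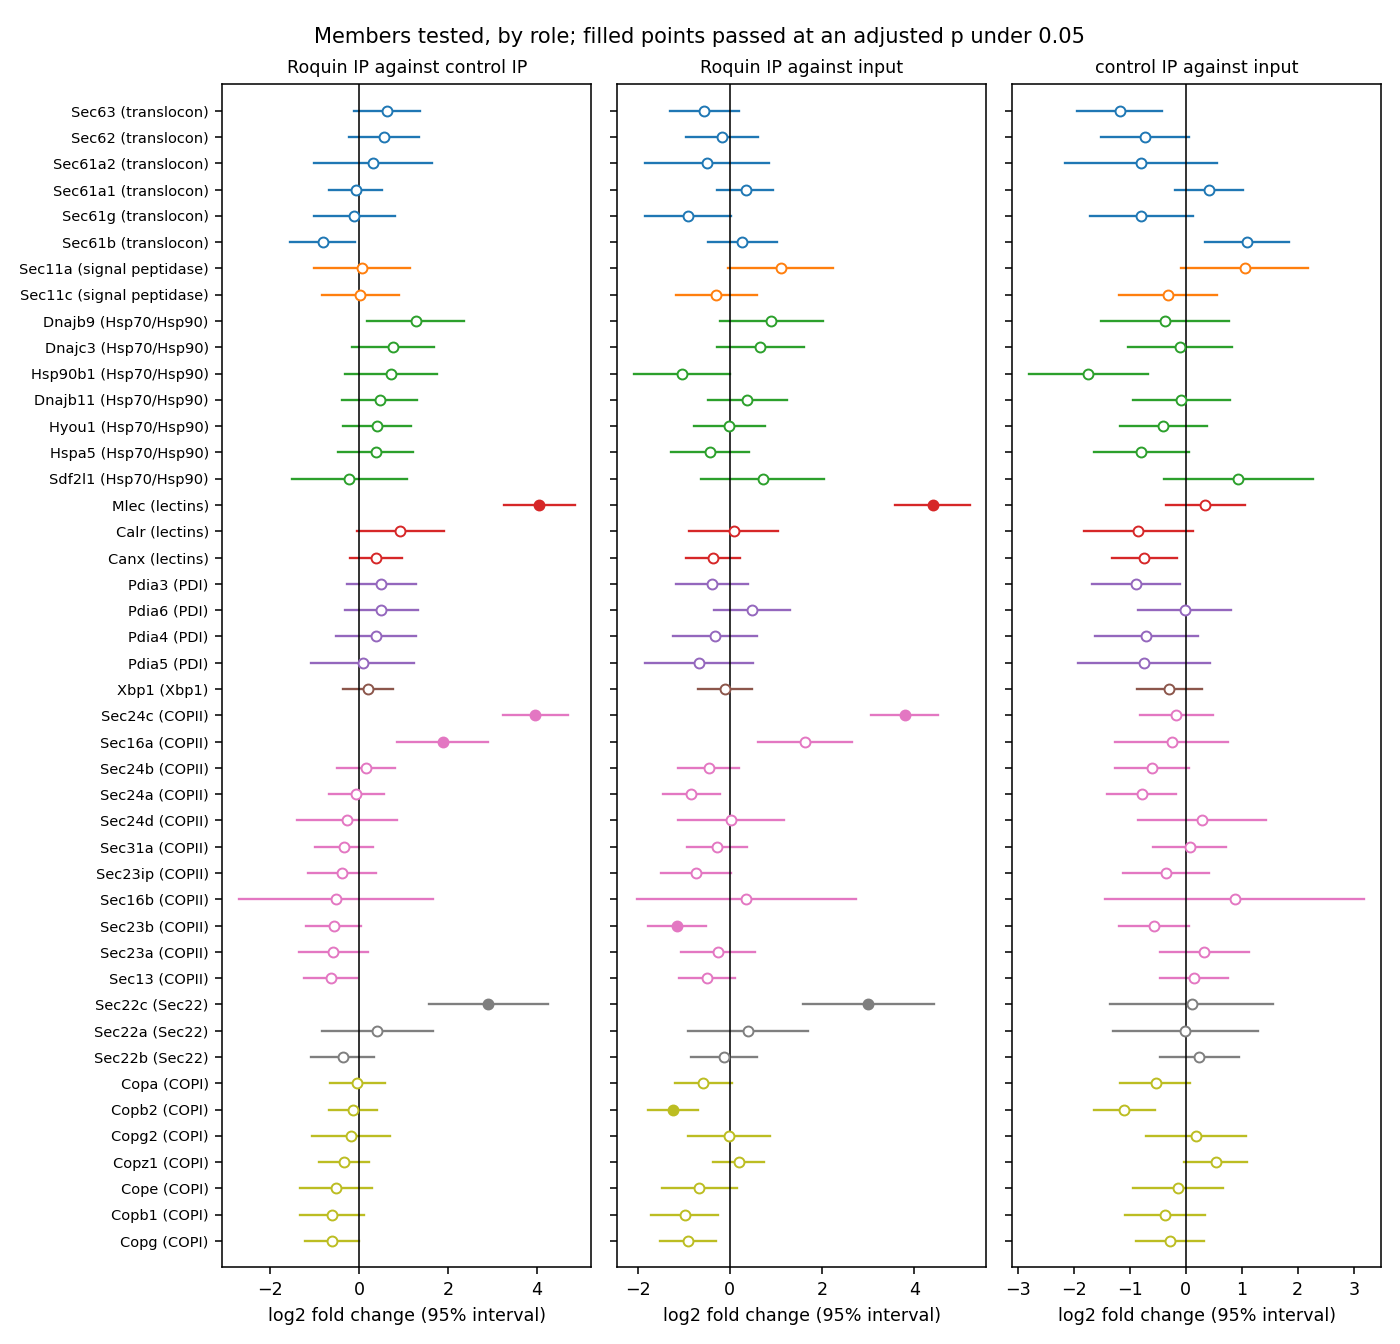
Log2 fold change (point) with its 95% interval (line) for each of the 44 genes tested, grouped by role. The panels set Roquin IP against control IP, then against the input, and set control IP against the input, with 3 libraries a group; filled points passed at an adjusted p under 0.05 in edgeR. Mlec and Sec24c lie near a log2 fold change of 4 in both panels that hold Roquin IP and near 0 in control IP against input.

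Mlec had 3343, 2819 and 4713 CPM in the Roquin IP libraries, against 167, 209 and 279 CPM in the control IP libraries and 155, 124 and 239 CPM in the input libraries. Every Roquin IP library was thus an order of magnitude above every other library, while the control IP and input ranges overlapped. The log2 fold change was 4.05 with an SE of 0.37 over control IP (95% interval 3.26 to 4.85, edgeR adjusted p = 7.63e-06) and 4.40 with an SE of 0.38 over the input (edgeR adjusted p = 4.59e-06). Leaving out any 1 library kept the first value between 3.82 and 4.27.

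Sec24c had 1243, 1095 and 1444 CPM in Roquin IP, against 75.4, 95.1 and 72.4 CPM in control IP and 111, 54.5 and 107 CPM in the input. The Roquin IP libraries again formed a narrow band well apart from the others. Its log2 fold change was 3.96 with an SE of 0.34 over control IP (95% interval 3.23 to 4.69, edgeR adjusted p = 3.78e-06) and 3.79 with an SE of 0.34 over the input (edgeR adjusted p = 6.46e-06), and it lay between 3.85 and 4.09 over control IP without any 1 library. By size of the log2 fold change against control IP, Mlec and Sec24c ranked 52 and 55 among the 9567 genes tested. An antisense gene, 6230400D17Rik, overlaps the span of Sec24c on the other strand over 7617 bases and is not listed in the table. The overlap is one of whole gene spans, introns included, and covers a part of Sec24c. The sources used here do not give how counting handled strand, so reads that fall in the shared stretch cannot be told apart.

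Sec22c was scarce outside Roquin IP. It had 52.8, 14.5 and 27.0 CPM in Roquin IP (126, 115 and 279 counts), against 6.39, 2.93 and 3.43 CPM in control IP (21, 15 and 40 counts) and 3.66, 0.790 and 7.43 CPM in the input (9, 2 and 15 counts). The lowest Roquin IP library was above the highest library of either other group. The log2 fold change was 2.90 with an SE of 0.62 over control IP and 3.00 with an SE of 0.66 over the input, with an edgeR adjusted p of 0.0122 in both. The call over control IP ended without Roquin IP library 1 (2.32, edgeR adjusted p = 0.121), control IP library 2 (2.71, 0.0803) or control IP library 3 (2.76, 0.0532), and the call over the input ended without Roquin IP library 1 (2.42, 0.0845), input library 1 (2.97, 0.051) or input library 2 (2.49, 0.0569).

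Sec16a had 423, 185 and 199 CPM in Roquin IP, against 134, 47.5 and 38.8 CPM in control IP and 109, 53.3 and 98.0 CPM in the input. Library 1 was the highest in all 3 groups, and the Roquin IP values did not overlap those of either other group. Over control IP the log2 fold change was 1.88 with an SE of 0.48 (edgeR adjusted p = 0.0417; 1.96 and 0.000294 with the replicate block), and over the input it was 1.63 with an SE of 0.48 (edgeR adjusted p = 0.0503; 1.56 and 0.00174 with the block). The call over control IP ended with scaling by library size alone (1.09, 0.0538), with only the 6 libraries compared (1.92, 0.101), and without Roquin IP library 1 (1.40, 0.264), control IP library 2 (1.65, 0.22) or control IP library 3 (1.57, 0.137). Over the input, Sec16a passed with no filter (1.64, edgeR adjusted p = 3.52e-05) and with only the 6 libraries compared (1.65, 0.0147). It also passed there in DESeq2 (1.63, DESeq2 adjusted p = 0.0102). It did not pass over the input when any 1 library was left out (edgeR adjusted p 0.0564 to 0.241).

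**Figure D2:**
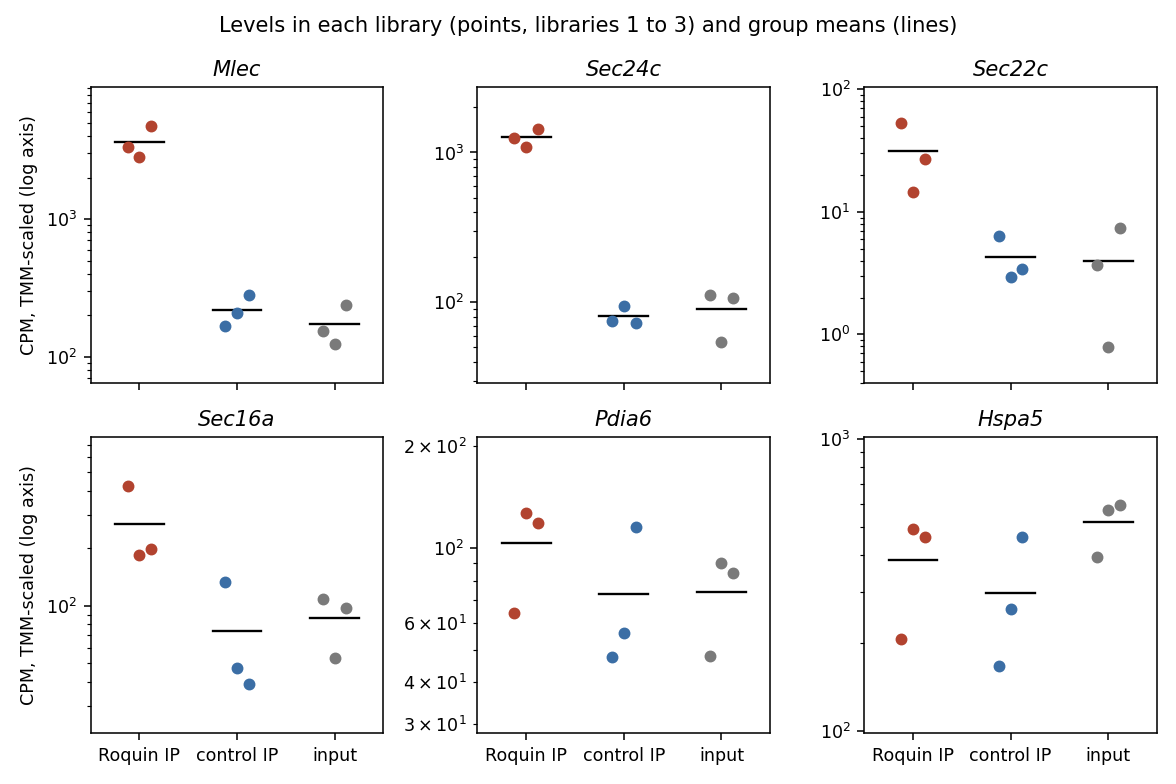
TMM-scaled CPM on a log axis in each library (points, libraries 1 to 3 from left to right) with the group mean (line) for the 4 genes that rose in Roquin IP over control IP and for Pdia6 and Hspa5. The 3 Roquin IP points of Mlec, Sec24c, Sec22c and Sec16a lie above all control IP and input points, and those of Pdia6 and Hspa5 overlap both.

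The 4 genes lie on different chromosomes. In GRCm38 coordinates of the GENCODE M21 annotation, Mlec lies at chr5:115142981-115158179 on the minus strand, Sec24c at chr14:20674308-20694852 on the plus strand, Sec22c at chr9:121680045-121705490 on the minus strand and Sec16a at chr2:26409431-26445216 on the minus strand. In the authors' deposited table, the ratio of Roquin IP to control IP was 16.84 for Mlec, 15.78 for Sec24c, 7.45 for Sec22c and 3.69 for Sec16a. The p-values in the authors' deposited table were listed as 0.000000 for Mlec and Sec24c, 0.916873 for Sec22c and 0.581209 for Sec16a. In the authors' deposited table, Mlec and Sec24c were the 2 genes of the group with a p-value under 0.05, of 46 with a value, and 249 genes over the whole table were under it.

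Mlec and Sec24c changed the make-up of the group in Roquin IP. They held 63.1, 51.0 and 63.4% of the group's summed CPM in the Roquin IP libraries, against 9.08, 10.4 and 9.63% in the control IP libraries and 6.72, 4.30 and 7.54% in the input. The 43 genes other than the 4 above summed to 3037 ± 725 CPM in Roquin IP, against 2700 ± 499 CPM in control IP libraries and 3874 ± 275 CPM in input libraries (mean ± SD of 3 libraries). The ranges of Roquin IP and control IP overlapped in that sum.

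Levels within a library, which need no scaling between libraries, were set beside those of the nearest relatives. These ratios were chosen after the values were seen, so they are given without a test. Counts of Sec24c were 11.8, 11.7 and 14.4 times the summed counts of its paralogs Sec24a, Sec24b and Sec24d in the Roquin IP libraries, against 0.588, 1.05 and 0.906 times in the control IP libraries and 0.652, 0.525 and 0.643 times in the input. Counts of Sec22c were 0.869, 0.219 and 0.378 times those of Sec22a and Sec22b in the Roquin IP libraries, against 0.0972, 0.0391 and 0.0352 times in the control IP libraries and 0.105, 0.00803 and 0.101 times in the input. Sec24c thus outnumbered its paralogs together in every Roquin IP library, whereas Sec22c stayed below Sec22a and Sec22b together in every library, with its share highest in Roquin IP. Counts of Mlec were 8.00, 3.69 and 7.06 times those of the lectins Calr and Canx in Roquin IP, against 0.536, 0.496 and 0.565 times in the control IP libraries and 0.207, 0.191 and 0.330 times in the input. Counts of Sec16a over those of the outer coat subunits Sec13 and Sec31a gave 5.13, 1.73 and 1.70 in the Roquin IP libraries, against 0.853, 0.378 and 0.273 in the control IP libraries and 1.06, 0.391 and 0.623 in the input libraries.

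**Figure D3:**
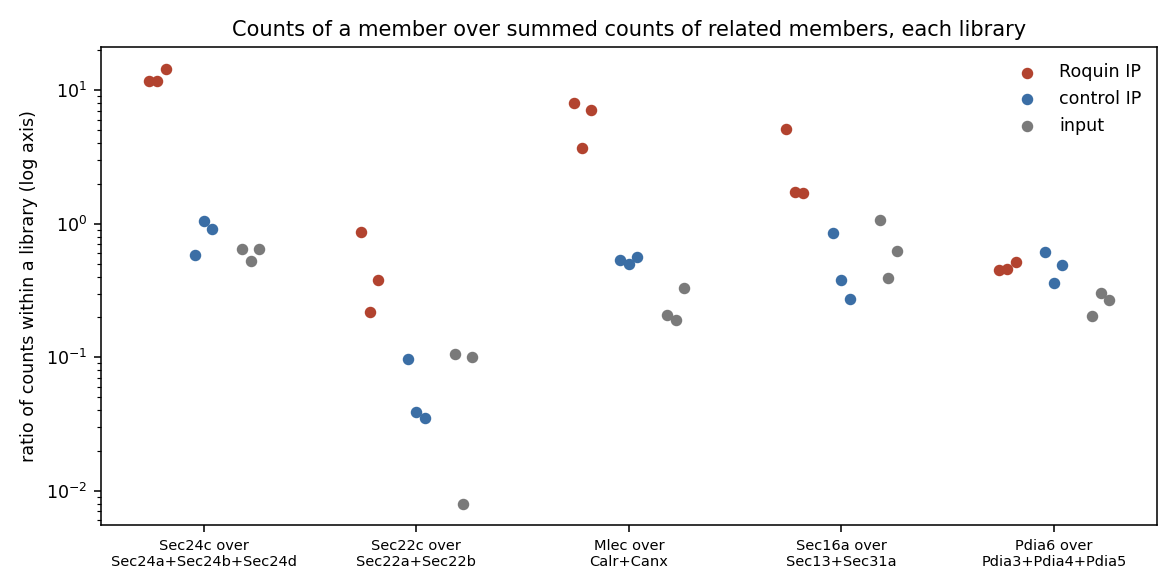
Counts of 1 gene over the summed counts of related genes in the same library, on a log axis, for each of the 3 Roquin IP, 3 control IP and 3 input libraries. The Roquin IP ratios of Sec24c (11.7 to 14.4), Sec22c (0.219 to 0.869), Mlec (3.69 to 8.00) and Sec16a (1.70 to 5.13) lie above those of every other library. The ratios of Pdia6 in Roquin IP (0.451 to 0.52) and control IP (0.362 to 0.612) overlap. Both lie above those in the input (0.204 to 0.304).

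Pdia6, which encodes a disulfide isomerase of the ER, is the only gene of the group to which the authors' deposited table gives a predicted CDE, of the class 3' UTR (conserved). Any predicted element is given there to 188 of the 20467 genes, 55 of them in this class. The letters TTCNNNGAA of the element, with a pyrimidine, a purine and a pyrimidine in the loop, were searched on the transcribed strand of the longest annotated 3' UTR of each gene (GENCODE M21, GRCm38). They occur in 568 of 9442 genes tested with a 3' UTR (6.02%) and in 2 of the 44 genes here (4.55%), Pdia6 and Dnajb9. The longest coding sequences of Copb2 and of Sec24d also hold 1 match each. The sites of Pdia6 and Dnajb9 are shown because they are the only matches in the 3' UTRs of the group. They are printed with the stem and loop of the element in capitals and 6 bases on each side, as DNA from 5′ to 3′.
Pdia6 (chr12:17284163-17284183, plus strand): gacgaaTTCTATGAAttgtag
Dnajb9 (chr12:44206869-44206889, minus strand): aaagttTTCTGTGAActattt
The Pdia6 site begins at base 163 of a 3' UTR of 764 bases, and 2 further bases on each side can pair to lengthen the stem. The Dnajb9 site begins at base 71 of 1395 and has 0 further pairs, and the authors' deposited table gives that gene the class no CDE.

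RNA of neither gene passed in Roquin IP. Pdia6 had 64.1, 127 and 119 CPM in Roquin IP, against 47.4, 56.0 and 115 CPM in control IP and 48.0, 90.4 and 84.2 CPM in the input, and the 3 groups overlapped. Its log2 fold change was 0.50 with an SE of 0.38 over control IP (95% interval -0.32 to 1.32, edgeR adjusted p = 0.735) and 0.48 with an SE of 0.39 over the input (edgeR adjusted p = 0.504). In the authors' deposited table its ratio of Roquin IP to control IP was 1.44, with a listed p-value of 1. Dnajb9, which encodes a J-domain co-chaperone of the ER Hsp70 Hspa5, had 12.1, 9.21 and 13.9 CPM in Roquin IP, against 4.26, 3.91 and 6.18 CPM in control IP and 10.6, 2.76 and 5.45 CPM in the input. The Roquin IP libraries of Dnajb9 lay above all control IP libraries and overlapped the input, with a log2 fold change against control IP of 1.27 and an SE of 0.51 (edgeR adjusted p = 0.355).

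The 4 genes higher in Roquin IP have no match to these letters in their longest 3' UTR, of 4934 bases in Mlec, 1061 in Sec24c, 4613 in Sec22c and 1454 in Sec16a. Among UTRs of 0.8 to 1.25 times the same length, 17.7%, 4.19%, 15.9% and 4.95% hold a match. A second search, free in the letters of the stem but asking for a longer stem, took another class of sites. It took any loop of 3 bases in the order pyrimidine, purine, pyrimidine closed by at least 6 Watson-Crick pairs. Such loops occur in 988 of 9442 genes (10.5%) and in 5 of the 44 genes here (11.4%): Sec22c, Dnajc3, Xbp1, Sec22b and Copb1. The sites of Pdia6 and Dnajb9 have shorter stems, and neither gene is among them. Of the 4 genes higher in Roquin IP, Sec22c alone holds a loop of this second class, and both of its loops are shown with the loop in capitals.
Sec22c, first (chr9:121680636-121680650, minus strand): gtggtgTGCcaccac
Sec22c, second (chr9:121680107-121680121, minus strand): atatacTGTgtatat
They begin at bases 4008 and 4537 of its 3' UTR. Among UTRs of like length to that of Sec22c, 24.9% hold such a loop, beside 26.5%, 8.18% and 10.3% for the lengths of Mlec, Sec24c and Sec16a. A match describes letters in a window and shows no site of binding, and a window without one says nothing of Roquin.

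Among the genes of protein entry, none of the 6 translocon genes and neither signal peptidase subunit passed over control IP. Over the 6 translocon genes the log2 fold changes ran from -0.82 to 0.63. Sec61a1, the pore-forming subunit and the most abundant of them, had 111, 128 and 137 CPM in Roquin IP, against 90.9, 163 and 144 CPM in control IP and 109, 79.7 and 109 CPM in the input. The Roquin IP and control IP ranges overlapped, with a log2 fold change of -0.08 and an SE of 0.28 (edgeR adjusted p = 0.943). Sec61b, the beta subunit of the channel, gave the lowest value of all 44 genes over control IP. It had 25.5, 31.3 and 35.0 CPM in Roquin IP, against 71.1, 38.5 and 54.0 CPM in control IP and 16.7, 36.3 and 23.3 CPM in the input, with a log2 fold change of -0.82 and an SE of 0.34 (edgeR adjusted p = 0.391). Its control IP libraries were the ones that stood apart, above all others.

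Sec63, a J-domain partner that links the channel to Hspa5, had 23.03, 53.6 and 34.4 CPM in Roquin IP, against 23.7, 20.7 and 27.9 CPM in control IP and 74.4, 43.4 and 47.0 CPM in the input, with a log2 fold change against control IP of 0.63 and an SE of 0.35 (edgeR adjusted p = 0.631). In control IP against input its log2 fold change was -1.18 with an SE of 0.35 (edgeR adjusted p = 0.0912). Sec11a, a catalytic subunit of signal peptidase, had 33.1, 32.6 and 50.3 CPM in Roquin IP, against 12.8, 27.8 and 69.9 CPM in control IP and 8.94, 22.9 and 22.3 CPM in the input. Its 3 Roquin IP libraries were above all input libraries and within the control IP range. The log2 fold change was 0.06 with an SE of 0.50 over control IP (edgeR adjusted p = 0.979) and 1.11 with an SE of 0.53 over the input (edgeR adjusted p = 0.231; 1.15 and 0.0437 with the replicate block). Sec11c, the other catalytic subunit, had 21.8, 36.9 and 40.2 CPM in Roquin IP, against 19.5, 25.6 and 51.3 CPM in control IP and 25.2, 56.5 and 40.1 CPM in the input, with a log2 fold change against control IP of 0.03 and an SE of 0.41 (edgeR adjusted p = 0.984).

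Folding genes apart from Mlec did not pass over control IP without the replicate block. Hspa5, also called BiP, the main Hsp70 of the ER lumen and a sensor partner of the unfolded protein response, had 207, 493 and 460 CPM in Roquin IP, against 168, 263 and 462 CPM in control IP and 394, 570 and 594 CPM in the input. The Roquin IP values spanned nearly the whole control IP range. Its log2 fold change was 0.38 with an SE of 0.39 over control IP (edgeR adjusted p = 0.809) and -0.42 with an SE of 0.39 over the input (edgeR adjusted p = 0.575). Hsp90b1, the Hsp90 of the ER, had 106, 312 and 243 CPM in Roquin IP, against 48.0, 123 and 231 CPM in control IP and 325, 562 and 466 CPM in the input. Every library of either IP was below every input library for Hsp90b1, and its log2 fold change against control IP was 0.72 with an SE of 0.49 (edgeR adjusted p = 0.699). For Roquin IP over the input it was -1.03 with an SE of 0.49 (edgeR adjusted p = 0.225).

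Calr, a soluble lectin chaperone that retains glycoproteins until they are folded, had 118, 327 and 345 CPM in Roquin IP, against 62.9, 144 and 207 CPM in control IP and 170, 247 and 336 CPM in the input. In each of the 3 replicate numbers the Roquin IP library was above the control IP library, although the groups overlapped. The log2 fold change against control IP was 0.93 with an SE of 0.45 (edgeR adjusted p = 0.535; 0.94 and 0.0176 with the replicate block). Over the input it was 0.08 with an SE of 0.45 (edgeR adjusted p = 0.946). In control IP against input it was -0.85 with an SE of 0.45 (edgeR adjusted p = 0.306). With the block, control IP against input gave -0.97 (edgeR adjusted p = 0.0156). A processed pseudogene, Calr-ps, could share reads with Calr. Canx, the membrane-bound relative of Calr, had 300, 436 and 322 CPM in Roquin IP, against 249, 277 and 287 CPM in control IP and 580, 399 and 387 CPM in the input, with a log2 fold change against control IP of 0.38 and an SE of 0.27 (edgeR adjusted p = 0.721). Pdia3, a disulfide isomerase that works with both lectins and the most abundant of its family here, had 113, 220 and 181 CPM in Roquin IP, against 62.3, 118 and 182 CPM in control IP and 189, 231 and 257 CPM in the input, with a log2 fold change against control IP of 0.50 and an SE of 0.36 (edgeR adjusted p = 0.722). Of the 4 isomerase genes tested none passed in any comparison without the block. Pdia2, the fifth, had 3 counts in all and was not tested.

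Sdf2l1, a lumenal partner of Hspa5 and its J-domain proteins, had 23.03, 56.8 and 57.2 CPM in Roquin IP, against 17.3, 63.6 and 79.9 CPM in control IP and 5.69, 35.9 and 43.6 CPM in the input. Library 1 was the lowest in each group. Its log2 fold change against control IP was -0.23 with an SE of 0.60 (edgeR adjusted p = 0.928), and it was the only folding gene of the 14 tested with a value below 0. The other 13 had values above 0, beside 39.8% of all genes tested, with a median of 0.48 over the 14, but with scaling by library size alone only 3 of the 14 were above 0, beside 8.55% of all genes, and the median was -0.40. Library 1 was the lowest of the Roquin IP libraries for 12 of the 14 folding genes, of the control IP libraries for 13 and of the input libraries for 9, beside 37.6%, 44.0% and 38.0% of all genes tested, so their lowest values fell mostly in library 1 of each group. The genes share these libraries and are not independent of each other.

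Xbp1, the transcription factor of the unfolded protein response whose mRNA is spliced in the cytoplasm by Ire1, varied little among the libraries. It had 53.6, 60.5 and 42.0 CPM in Roquin IP, against 48.3, 49.7 and 37.9 CPM in control IP and 58.5, 54.5 and 54.0 CPM in the input. The log2 fold change was 0.20 with an SE of 0.27 over control IP (95% interval -0.37 to 0.77, edgeR adjusted p = 0.854) and -0.10 with an SE of 0.27 over the input (edgeR adjusted p = 0.869). Counts per gene do not separate its spliced and unspliced forms.

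Within the coats, relatives differed widely. Of 18 coat genes tested, Sec24c and Sec16a rose in Roquin IP over control IP, 15 had log2 fold changes below 0, beside 60.2% of all genes, and none of those passed. The median over the 18 was -0.34, beside -0.12 over all genes tested. No paralog of Sec24c passed. Sec24a had 33.9, 36.1 and 34.8 CPM in Roquin IP, against 41.4, 32.9 and 34.9 CPM in control IP and 81.7, 45.4 and 60.9 CPM in the input, with a log2 fold change against control IP of -0.06 (95% interval -0.67 to 0.56, edgeR adjusted p = 0.962). For Sec24b and Sec24d the log2 fold changes over control IP were 0.15 (95% interval -0.50 to 0.80) and -0.27 (-1.39 to 0.85) and did not reach the interval of Sec24c. Sec16b, the paralog of Sec16a, was near the limit of detection, at 5.86, 2.40 and 1.06 CPM in Roquin IP, against 10.0, 1.76 and 1.12 CPM in control IP and 4.88, 1.58 and 0 CPM in the input. Its interval over control IP, -2.70 to 1.67, was too wide to set beside that of Sec16a. Sec13, a subunit of the outer COPII cage, had 30.98, 41.4 and 45.1 CPM in Roquin IP, against 48.3, 62.2 and 73.0 CPM in control IP and 47.6, 57.6 and 61.4 CPM in the input. The Roquin IP libraries of Sec13 were below all others, with a log2 fold change against control IP of -0.64 and an SE of 0.28 (edgeR adjusted p = 0.435).

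Sec22b, the SNARE of ER-Golgi transport, had 46.9, 55.3 and 63.2 CPM in Roquin IP, against 61.4, 64.0 and 88.6 CPM in control IP and 33.3, 84.5 and 63.9 CPM in the input, with a log2 fold change against control IP of -0.37 and an SE of 0.33 (edgeR adjusted p = 0.772). The 3 groups overlapped in Sec22b, while the Roquin IP libraries of Sec22c stood above all others.

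None of the 7 COPI genes tested passed over control IP, and all 7 had values between -0.61 and -0.04. Copa, the alpha subunit and the most abundant COPI gene over all libraries, had 107, 142 and 131 CPM in Roquin IP, against 143, 132 and 116 CPM in control IP and 260, 128 and 182 CPM in the input, with a log2 fold change against control IP of -0.04 and an SE of 0.29 (edgeR adjusted p = 0.975). Copa overlaps Ncstn on the other strand over 267 bases. Copg, the gamma subunit that the annotation names Copg1, had 38.9, 47.3 and 55.2 CPM in Roquin IP, against 83.6, 68.5 and 65.5 CPM in control IP and 94.7, 63.6 and 107 CPM in the input. Its 3 Roquin IP libraries were the lowest 3 of the 9, with a log2 fold change against control IP of -0.61 and an SE of 0.28 (edgeR adjusted p = 0.484). Counting libraries that do not overlap, 6 of the 44 genes lay wholly higher (13.6%) and 3 wholly lower (6.82%) in Roquin IP than in control IP, beside 10.7% and 8.00% of all genes tested.

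Against the input, Roquin IP gave the same leading genes and a small set that was lower. Mlec, Sec24c and Sec22c were higher (3 of 44, 6.82%, beside 5.45% of all genes tested), and Copb2 and Sec23b were lower (2 of 44, 4.55%, beside 2.79%). DESeq2 called 4 higher and 4 lower, beside 7.44% and 5.67% of all genes, and at an unadjusted p under 0.05 edgeR gave 4 higher and 5 lower, beside 12.1% and 10.7%. When libraries were scaled by size alone, 3 were higher and 18 lower, beside 2.71% and 27.8%. The comparison shares the Roquin IP libraries with the one above. Copb2, the beta' subunit of COPI, had 54.0, 76.1 and 58.4 CPM in Roquin IP, against 61.1, 74.0 and 72.9 CPM in control IP and 147, 155 and 143 CPM in the input. Both IPs held less than any input library, with a log2 fold change of Roquin IP over the input of -1.24 and an SE of 0.26 (edgeR adjusted p = 0.00863). That call ended without Roquin IP library 1 (-1.14, 0.0579) or Roquin IP library 3 (-1.18, 0.0557). Sec23b, which activates the GTPase of the COPII coat, had 22.6, 32.6 and 39.6 CPM in Roquin IP, against 54.7, 37.2 and 50.5 CPM in control IP and 67.1, 65.9 and 77.7 CPM in the input. Its log2 fold change over the input was -1.14 with an SE of 0.30 (edgeR adjusted p = 0.0292), and the call ended without any 1 of the 6 libraries compared (edgeR adjusted p 0.0507 to 0.151).

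With the replicate block, 5 genes were higher and 6 lower in Roquin IP than in the input, beside 9.99% and 8.04% of all genes tested: Sec16a and Sec11a joined the higher ones, and Hsp90b1, Sec24a, Copb1 and Copg the lower ones. Counting libraries that do not overlap, 6 of the 44 lay wholly above (13.6%) and 10 wholly below (22.7%) the input, beside 16.5% and 14.4% of all genes tested. The median log2 fold change of the 44 was -0.21, beside -0.01 over all genes tested. In the 18 coat genes it was -0.48, with 13 below 0, and in the 14 folding genes it was 0.03, with 7 below 0, beside 50.5% of all genes below 0. Under scaling by library size alone 12 of the 14 folding genes were below 0, beside 83.7% of all genes.

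Control IP against input shows what beads held without antibody. No gene of the group passed in control IP against input (0 of 44, beside 0.815% higher and 0.303% lower of all genes tested), with 1 higher and 6 lower at an unadjusted p under 0.05 in edgeR, beside 10.8% and 9.53%, and 1 higher and 4 lower in DESeq2, beside 4.23% and 4.19%. With the replicate block, Sec61b (1.11, edgeR adjusted p = 0.0464) and Sdf2l1 (0.99, 0.0403) were higher in control IP, and 7 genes were lower: Hsp90b1 (-1.95, 0.0034), Copb2 (-1.10, 0.00554), Calr, Sec63, Pdia3, Hspa5 and Canx. These 2 and 7 of 44 stood beside 6.65% and 5.78% of all genes tested. Without the block, the log2 fold change of Hsp90b1 was -1.75 with an SE of 0.50 (edgeR adjusted p = 0.0801) and that of Copb2 -1.10 with an SE of 0.25 (edgeR adjusted p = 0.0511). Counting libraries that do not overlap, 1 gene lay wholly above the input (2.27%) and 9 wholly below (20.5%), beside 12.2% and 10.8% of all genes tested. The median log2 fold change of the 44 was -0.29, beside 0.02 over all genes tested, and 12 of the 14 folding genes were below 0, beside 48.8% of all genes (9 of 14, beside 43.6%, with scaling by library size alone). For Mlec and Sec24c the same comparison gave 0.34 with an SE of 0.33 and -0.17 with an SE of 0.31 (edgeR adjusted p = 0.602 and 0.811), so neither differed between beads and lysate beyond the spread.

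Per length, Hsp90b1, Hspa5, Calr, Canx and Pdia3 led the group in the lysate. In CPM per kb of the longest coding transcript, Hsp90b1 averaged 159.7, Hspa5 141.4, Calr 114.8, Canx 106.3 and Pdia3 81.3 in the input (n = 3). The ranges of these 5 neighbours overlapped one with the next, and the only gap between neighbours in the whole order came between Pdia3 and Copb2, at 48.63 CPM per kb. Mlec ranked 15 of the 47 at 28.94, Sec24c was at 20.38, Sec16a at 9.86 and Sec22c, ranked 43, at 0.693 CPM per kb. The genes higher in Roquin IP were thus spread over much of the order of input levels. In Roquin IP, Mlec averaged 609 CPM per kb, against 36.7 CPM per kb in control IP and 28.9 CPM per kb in the input. Pdia2, Copz2 and Sec31b, with 3, 10 and 5 counts over all 9 libraries, were at the bottom and were not tested.

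**Figure D4:**
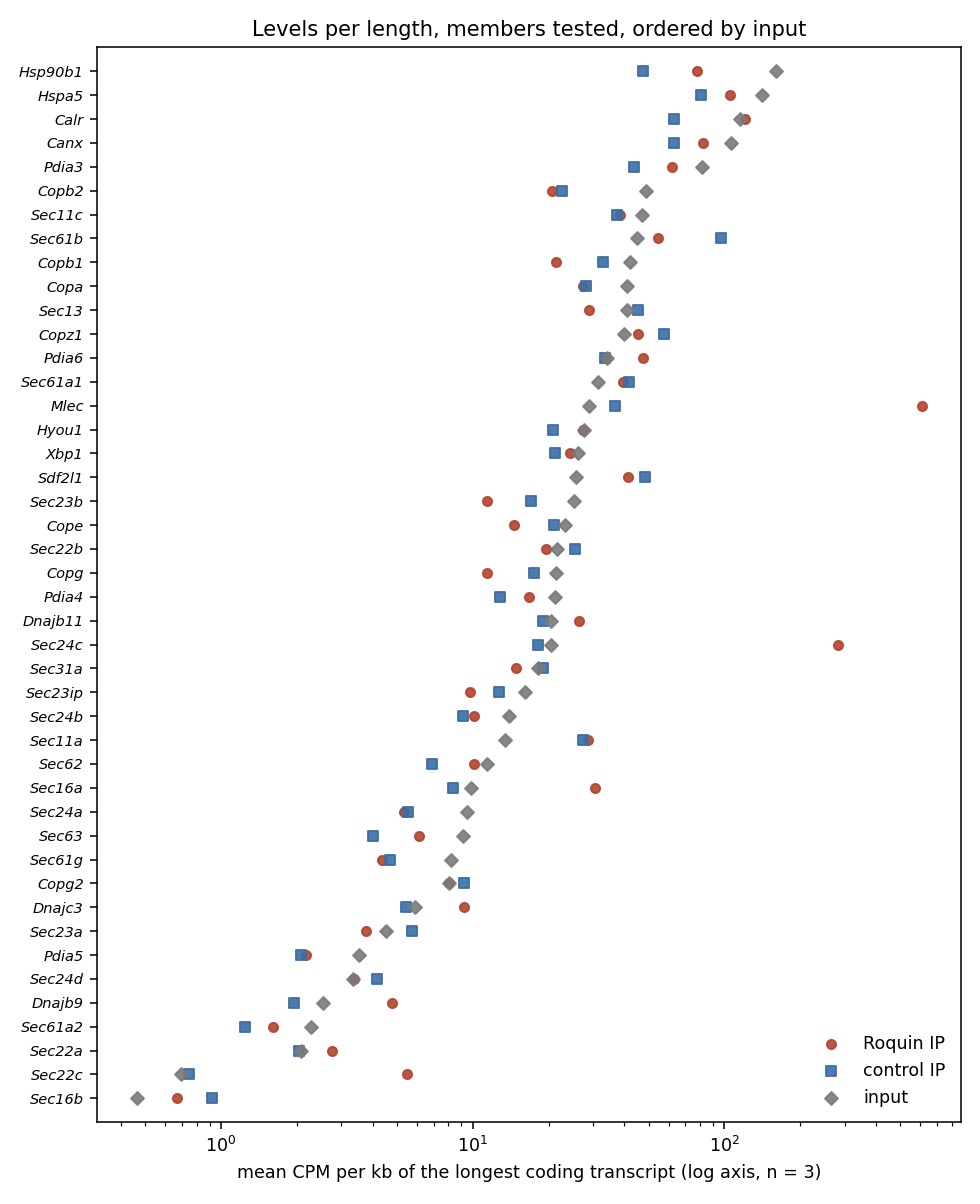
Mean TMM-scaled CPM per kb of the longest coding transcript (log axis, n = 3 libraries a group) for the 44 genes tested, in the order of the input level, in Roquin IP (circles), control IP (squares) and input (diamonds). Most genes keep all 3 points close together, while the Roquin IP points of Mlec and Sec24c lie far to the right at 609 and 283 CPM per kb.

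Other genes of the same route, in 6 lists of 108 genes, were read off the same fit. Of 103 tested, 5 rose in Roquin IP over control IP and 0 fell (4.85%, beside 3.76% of all genes tested). With the replicate block 9 rose and 0 fell (8.74%, beside 5.52%). A share this near that of all genes is no result about the lists. Dnajc10, an ER reductase with a J domain that unfolds substrates for degradation, had 203, 304 and 439 CPM in Roquin IP, against 16.7, 28.4 and 47.5 CPM in control IP and 47.2, 51.3 and 43.1 CPM in the input, with a log2 fold change against control IP of 3.34 and an SE of 0.40 (edgeR adjusted p = 7.27e-05). Sel1l, the membrane adaptor of the Hrd1 ubiquitin ligase in ER-associated degradation, had 130, 176 and 154 CPM in Roquin IP, against 29.8, 28.0 and 33.5 CPM in control IP and 74.4, 44.2 and 43.6 CPM in the input, with a log2 fold change of 2.33 and an SE of 0.30 (edgeR adjusted p = 0.000127). In both genes every Roquin IP library was above every other library. Magt1, an oxidoreductase subunit of oligosaccharyltransferase, had 107, 152 and 150 CPM in Roquin IP, against 28.6, 43.6 and 46.9 CPM in control IP and 66.3, 46.6 and 55.5 CPM in the input, with a log2 fold change of 1.77 and an SE of 0.29 (edgeR adjusted p = 0.00153).

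Txndc11, a thioredoxin-domain protein of the ER, had 32.7, 76.9 and 86.5 CPM in Roquin IP, against 4.56, 11.4 and 14.2 CPM in control IP and 0.813, 10.7 and 14.4 CPM in the input, with a log2 fold change against control IP of 2.67 and an SE of 0.62 (edgeR adjusted p = 0.0228). Its call ended without Roquin IP library 2 or 3 or control IP library 1 or 2 (edgeR adjusted p 0.0653 to 0.0891). Eif2ak3, also called PERK, the kinase of the unfolded protein response that slows translation, had 18, 20.4 and 25.8 CPM in Roquin IP, against 9.73, 3.91 and 2.66 CPM in control IP and 2.44, 2.37 and 4.95 CPM in the input, with a log2 fold change against control IP of 2.05 and an SE of 0.51 (edgeR adjusted p = 0.035). Its call ended with scaling by library size alone (1.27, 0.0585) and without any 1 of the 3 Roquin IP libraries or control IP library 2 or 3 (edgeR adjusted p 0.0853 to 0.205). By list, 0 of 18 genes of signal recognition and the translocon's partners were higher over control IP, 1 of 10 of oligosaccharyltransferase, 2 of 17 other folding enzymes, 1 of 16 of ER-associated degradation, 1 of 12 of unfolded protein response signalling and 0 of 30 partners of the coats. None of these lists had a gene that was lower, and with 3.76% of all genes higher, counts of 0 to 2 per list say nothing particular of a list. Over the input, the same 5 genes and Derl1 were higher (5.83% of the 103, beside 5.45% of all genes) and Vcp was lower (0.971%, beside 2.79%). The calls of Derl1 (log2 fold change 0.94, edgeR adjusted p = 0.0457) and Vcp (-1.13, 0.048) ended without any 1 of the 6 libraries compared, with edgeR adjusted p of 0.0687 to 0.15 for Derl1 and 0.0637 to 0.206 for Vcp. Derl1 also missed the threshold with no filter (0.0612) and with scaling by library size alone (0.688). The call of Magt1 over the input ended without Roquin IP library 2 or 3 or input library 2 (edgeR adjusted p 0.0599 to 0.0731) and with scaling by library size alone (0.229), which also ended that of Sel1l (0.0888). Those of Txndc11 and Eif2ak3 over the input ended without input library 2 (edgeR adjusted p = 0.0604 and 0.0518). With the block, 15 of the 103 were higher and 5 lower over the input, beside 9.99% and 8.04% of all genes. In control IP against input none of the 103 passed without the block, and with it 8 were higher and 6 lower, beside 6.65% and 5.78% of all genes.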

How the data were processed

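The deposited table gave, per the file headers, raw counts per gene for 9 libraries, the authors' ratio of Roquin IP to control IP with its p-value, and a predicted element class as text. The header of the deposited ratio names log2, but the values were read as linear, since none of those of the members is negative. For Mlec the deposited 16.84 lies near the fold of 16.58 found here. The submitters' processing notes name CASAVA (1.8.2), BWA and DESeq (1.8.3). Not given in the sources used here are the genome build, annotation, strand handling and any adjustment of the deposited p-value. The 7480 entries without a symbol were left out, and 6312 of the 20467 genes had no count in any library.

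The Roquin IP libraries held 3547517, 12975767 and 12898468 assigned reads, the control IP libraries 2929537, 4180549 and 8466096, and the input libraries 2122288, 2055795 and 1799390. No library was a duplicate of another: between replicates the chi-square per degree of freedom over genes was 13.9 to 117.

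The model for the counts was edgeR 4.0.16 in R 4.3.3 (quasi-likelihood F test, TMM factors, all 9 libraries, a term for group alone). Low genes were removed by filterByExpr at a minimum count of 10, leaving 9567 genes, and p-values were adjusted over them by Benjamini-Hochberg, with a threshold of 0.05. The common biological coefficient of variation was 0.35. SE is the log2 fold change over the square root of F, and intervals are at the 95% level. The fit was also run on simulated counts. These were drawn independently for each library, so that run says nothing of the pairing of libraries. Alternatives were DESeq2 1.42.0, RLE factors, library size alone, Tnf and Lars2 left out, no filter, only the 6 libraries compared, the replicate block and each library left out. Same-numbered libraries deviated together in all 9 pairs (r 0.152 to 0.58 across genes, which are not independent replicates), against r of -0.433 to -0.0185 between different numbers. Deviations cancel out within each group, so r between different numbers tends to be negative once same-number r is positive. It is therefore no separate evidence. The main fit leaves the pairing by number out, so its SEs, intervals and calls do not take that pairing into account. Only the fits with the replicate block do.

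Members and lists were chosen with earlier results of these data known. Values in every library, with the log2 fold change in some or all comparisons, are given for a fixed set of members. These are members that passed in any comparison, the most abundant member of each role, the 3 highest and 3 lowest by log2 fold change in each comparison, Xbp1, Hspa5 and members with a predicted element. Others named with values were chosen after their values were seen. Genes were matched to GENCODE M21 (8772 by symbol, 727 by synonym). Sequences come from GENCODE M21 transcripts on GRCm38. Of the members, 17 overlap another annotated gene and 7 a coding one, and reads there are uncertain.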

Additional observations from a re-analysis of the deposited data

How the results depend on the processing

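Mlec and Sec24c kept their direction and call over control IP and over the input under every alternative run. Scaling by library size alone moved the median of all genes by -0.84 in Roquin IP against control IP and by -0.75 in Roquin IP against input. Under it, 15 members were lower over control IP (beside 38.6% of all genes) and 18 lower over the input (beside 27.8%). The members' median minus that of all genes was 0.16 and -0.23 under it, against 0.19 and -0.21 with TMM factors. It also turned the sign of 18 of the 44 members tested over control IP, 11 over the input and 4 in control IP against input. Of the 21 members given in full, none of which passed in either setting where its sign turned, these were over control IP Hsp90b1 (-0.19), Hspa5 (-0.50), Pdia3 (-0.39), Pdia6 (-0.38), Sec11a (-0.82), Sec11c (-0.83), Sec63 (-0.25) and Xbp1 (-0.65), over the input Pdia6 (-0.27), Sdf2l1 (-0.04), Sec61a1 (-0.40) and Sec61b (-0.48), and in control IP against input Pdia6 (0.11). Among the same 21, with only the 6 libraries compared Copa over control IP was 0.02, and with no filter Pdia6 in control IP against input was 0.02. Over the input, the members higher and lower numbered 5 and 4 with no filter (beside 4.83% and 2.94% of 14155 genes) and 5 and 6 with the replicate block, and DESeq2 called 4 lower. In control IP against input, RLE factors gave 1 lower (Copb2; beside 0.429% of all genes), no filter 3 lower (beside 1.62% of all genes), the replicate block 2 higher and 7 lower, and DESeq2 1 higher and 4 lower. The cause of these differences was not tested. Leaving out 1 library gave 2 to 4 members higher over control IP (276 to 371 of all genes), and 2 to 3 higher and 0 to 1 lower over the input (298 to 409 and 30 to 192 of all genes). Log2 fold changes of 13, 10 and 16 of the 44 members crossed 0 in the 3 comparisons when 1 library was left out. Of the 21 given in full, those that did, none of them a call, ranged over control IP from -0.13 to 0.07 (Copa), -0.63 to 0.18 (Sdf2l1), -0.34 to 0.93 (Sec11a), -0.22 to 0.56 (Sec11c) and -0.29 to 0.09 (Sec61a1); over the input from -0.22 to 0.04 (Xbp1), -0.54 to 0.03 (Sec11c) and -0.42 to 0.19 (Sec22b); and in control IP against input from -0.52 to 0.22 (Pdia6), -0.41 to 0.85 (Sec22c), 0.00 to 0.29 (Sec13), -1.01 to 0.06 (Sec16a), -0.05 to 0.56 (Sec22b) and -0.43 to 0.01 (Sec24c). The input libraries were the shallowest, where Sec22c had 2 to 15 counts. Intervals cover the spread between these libraries only.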
